A study of Mus musculus with 6 samples.

Results

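The prolactin receptor, JAK2 and STAT5 axis is described here through 10 genes, chosen by name for their place in the pathway, with earlier results of these data known. These are the receptors Prlr and Il6st, the kinase gene Jak2, the transcription factor genes Stat5a, Stat5b, Stat3 and Stat6, and the feedback inhibitor genes Cish, Socs2 and Socs3. They are 10 of the 52636 genes in the count table, and all 10 passed the filter on low counts, which left 12284 genes. RNA from 2 mouse mammary tumour lines was sequenced from the 3′ ends of its transcripts, with 3 biological replicates of each line. J110 cells came from transgenic mice that carry an AIB1 cDNA driven by the MMTV LTR, a viral promoter active in mammary epithelium, and SSM3 cells came from mammary tumours of 129SvEv mice. Each line grew in its own medium, so differences of culture and of line cannot be told apart. Each line is also a single model, so the replicates measure the spread between cultures of that line and not between tumours.

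Prolactin is a hormone of the pituitary that is also made in other tissues. Its receptor PRLR has no kinase activity of its own and works through the bound kinase JAK2, which phosphorylates STAT5A and STAT5B so that they enter the nucleus as dimers and bind DNA. In the mammary gland this pathway drives the growth of alveoli in pregnancy and the transcription of milk protein genes. CISH, SOCS2 and SOCS3 are transcribed in response to STATs and dampen the same receptors. IL6ST, also called gp130, is the shared receptor chain of the IL-6 family and signals through JAKs mainly to STAT3, while STAT6 responds to IL-4 and IL-13. Counts from 3′ ends hold no information on the coding sequence of these genes.

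Total counts ranged from 5209740 to 5416305 in J110 libraries and from 4200785 to 4792941 in SSM3 libraries, so that 3 counts, taken as the floor of detection, corresponded to between 0.578 and 0.668 counts-per-million (CPM). The labels could not be checked on a targeted gene. Ncoa3, which encodes AIB1, had 110, 106 and 102 counts in J110 and 181, 199 and 186 in SSM3, and a transgene made from cDNA need not carry the 3′ end counted here, so this gene does not check the label. All libraries held a few counts on genes of the other line, taken as those that averaged at least 100 CPM in one line and under 1 CPM in the other, outside the lists described here, and these were most widespread in J110 replicate 3, on 44 of 54 such genes at 0.244% of the SSM3 level, and in SSM3 replicate 2, on 49 of 50 at 0.438% of the J110 level. Of 5 epithelial marker genes, 4 exceeded 1 CPM in J110 and 5 in SSM3, with summed levels of 2677 to 2766 and 11879 to 13073 CPM. Epcam had 2, 1 and 7 counts in J110 against 2376, 2404 and 2412 in SSM3, Cdh1 averaged 4.02 and 1374 CPM, Krt19 18.6 and 7412 CPM and Krt8 1275 and 2270 CPM, while Krt18 was lower in SSM3, at 1430 and 970 CPM. Of 5 mature luminal markers, 4 exceeded 1 CPM in J110, where they summed to 294 to 319 CPM, and 5 in SSM3, where they summed to 2507 to 2689 CPM. Among them Pgr averaged 0.139 and 367 CPM and Gata3 3.27 and 1038 CPM. Leukocyte markers summed to 14.8 to 23.3 CPM in J110, with 2 of 7 genes over 1 CPM and the pan-leukocyte gene Ptprc at 0, and to no less than 1.19 CPM in SSM3, where Ptprc had 0, 2 and 0 counts. Endothelial markers summed to 158 to 181 CPM in J110, with 2 of 4 genes over 1 CPM and nearly all of it Cdh5 (836, 790 and 856 counts), and to at most 0.425 CPM in SSM3. Basal markers summed to 1.67 to 2.57 CPM in J110 (1 of 5 genes over 1 CPM) and to 11.5 to 22.9 CPM in SSM3 (3 of 5), while fibroblast markers reached at most 1.98 and 1.91 CPM and adipocyte markers at most 6.72 and 0.637 CPM. A ribosomal RNA locus took 15.1% to 17.2% of the counts in J110 libraries and 0.779% to 1.27% in SSM3 libraries, and without its genes 9 axis genes were again called. The part of the marker differences in the results below was not tested.

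STAT dimers bind a palindrome spelled TTCNNNGAA, which reads the same on both strands, and it was searched in RefSeq promoter windows of 300 bases, from 250 bases before to 50 after each annotated start (GRCm38.p6). It occurred in 8.3% of 32851 windows, and in 0.457% it occurred at 2 or more places. Windows were found for 9 of the 10 axis genes, with none for Socs2, and 3 of their 13 windows held the motif. The windows are shown for these 3 genes, and for Csn2, which encodes the milk protein beta-casein and is the textbook STAT5 target, with the matches in capitals and the rest in lower case. They lie at chr9:107296409-107296708 on the plus strand for Cish, at chr11:117969317-117969616 on the minus strand for Socs3, at chr15:10223656-10223955 on the plus strand for Prlr, and at chr5:87699376-87699675 on the minus strand for Csn2.
Cish: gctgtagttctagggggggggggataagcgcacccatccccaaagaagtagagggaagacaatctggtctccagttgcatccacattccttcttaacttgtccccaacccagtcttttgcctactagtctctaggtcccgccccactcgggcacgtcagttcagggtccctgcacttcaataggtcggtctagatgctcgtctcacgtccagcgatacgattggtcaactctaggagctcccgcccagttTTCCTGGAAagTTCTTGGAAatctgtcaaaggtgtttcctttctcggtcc
Socs3: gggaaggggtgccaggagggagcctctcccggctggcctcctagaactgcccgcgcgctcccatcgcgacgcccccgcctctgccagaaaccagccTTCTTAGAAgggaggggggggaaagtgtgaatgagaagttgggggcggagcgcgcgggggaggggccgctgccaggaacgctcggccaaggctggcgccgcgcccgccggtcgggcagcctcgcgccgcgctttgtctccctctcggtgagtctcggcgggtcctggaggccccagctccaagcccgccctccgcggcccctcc
Prlr: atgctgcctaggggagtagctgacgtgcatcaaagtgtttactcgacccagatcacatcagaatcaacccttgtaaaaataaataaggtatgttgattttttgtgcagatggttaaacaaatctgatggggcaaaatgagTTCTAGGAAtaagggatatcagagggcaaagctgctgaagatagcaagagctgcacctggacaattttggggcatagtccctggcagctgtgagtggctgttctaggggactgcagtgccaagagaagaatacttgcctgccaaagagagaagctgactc
Csn2: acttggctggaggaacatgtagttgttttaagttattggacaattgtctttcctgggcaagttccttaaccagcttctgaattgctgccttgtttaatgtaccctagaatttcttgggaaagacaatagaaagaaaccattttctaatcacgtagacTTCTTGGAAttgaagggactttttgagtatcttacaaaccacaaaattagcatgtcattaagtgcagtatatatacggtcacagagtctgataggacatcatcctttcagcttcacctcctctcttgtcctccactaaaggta
The Cish window held 2 matches, TTCCTGGAA at the annotated start and TTCTTGGAA, and the second has the same letters as the Csn2 match. The Prlr match lies in the second of 3 windows annotated for that gene. A related form with a longer spacer, TTCNNNNGAA, was in 6.95% of all windows and in 0 of the 13 windows of axis genes. The Csn2 window holds it once, as TTCTTGGGAA at 140 bases before the start, left in lower case above. A match describes the sequence only, and windows without one say nothing about STAT binding elsewhere.

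Prolactin and its receptor were counted in opposite lines. Prlr (ENSMUSG00000005268, chr15:10177238-10349180, plus strand, mm10) had 0, 1 and 5 counts in J110 replicates 1, 2 and 3 against 2489, 2910 and 3036 in SSM3. Every SSM3 library was far above every J110 library, and J110 replicate 1 held no Prlr count at all. The means were 0.414 ± 0.554 CPM (SD, n = 3) in J110 against 592 ± 33.5 CPM (SD, n = 3) in SSM3. Pooled over replicates, the ratio was 1486-fold higher in SSM3, with 95% limits of 682 to 4050 for counting error only. The fitted log2 fold change was 10.44 ± 0.21 (SE), with an adjusted p of 3.08e-16 in edgeR's quasi-likelihood test. It was 12.22 without J110 replicate 3 and 9.85 without J110 replicate 1, so the size rests on very few J110 counts. The 5 counts of J110 replicate 3 are 0.176% of the SSM3 mean.

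Prl, the gene of the hormone (ENSMUSG00000021342, chr13:27057570-27065205, plus strand), had 1589, 1460 and 1329 counts in J110 against 0, 6 and 0 in SSM3. All of the SSM3 counts were in replicate 2, at 0.438% of the J110 mean. Prl averaged 291 ± 14.6 CPM (SD, n = 3) in J110 and 0.425 ± 0.736 CPM in SSM3, and the pooled ratio was 690-fold higher in J110 (95% counting limits 317 to 1882). The log2 fold change of SSM3 against J110 was -9.34 ± 0.26 (SE), with an adjusted p of 8.81e-15 in edgeR's test. Without SSM3 replicate 2 both remaining libraries were at 0 and the fitted value was -13.48, which is not a bound, and without SSM3 replicate 3 it was -8.74. Prolactin in the medium was not measured by these data. Growth hormone, whose gene Gh belongs to the same hormone family, had 0 counts in every library. Its receptor gene Ghr, the closest relative of Prlr on the list, had 107, 115 and 96 counts in J110 and 114, 141 and 89 in SSM3, with overlapping libraries and an adjusted p of 0.300 in edgeR's test.

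**Figure D1:**
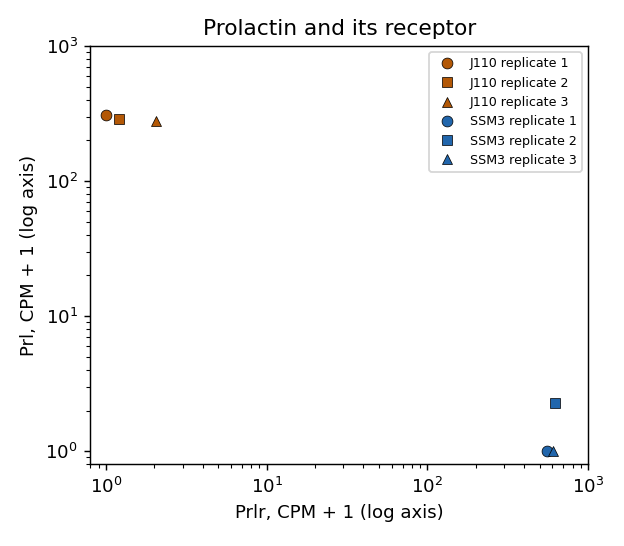
Level of Prl against level of Prlr, both as CPM + 1 on log axes, with 1 point for each of the 6 libraries. The 3 J110 libraries sit at the upper left, with Prl at 277 to 306 CPM and Prlr at no more than 1.04 CPM, and the 3 SSM3 libraries at the lower right, with Prlr at 554 to 618 CPM and Prl at no more than 1.27 CPM.

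The genes whose log2 CPM followed Prlr most closely over the 6 libraries, among 9062 genes that averaged 10 CPM or more, were Kcnk1, Tph1, C1s1, Etl4 and Ly6d, with Pearson r from 0.99960 to 0.99993. With 2 groups of libraries such values mostly restate the difference between the lines, and they are given as a description. Tph1, which encodes the first enzyme of serotonin synthesis, had 0, 1 and 4 counts in J110 and 2558, 2809 and 2773 in SSM3. Kcnk1, a potassium channel gene, had 0, 1 and 5 counts in J110, the same as Prlr, and 1521, 1677 and 1723 in SSM3. Etl4 followed the same pattern on a much smaller scale, with a log2 fold change of 1.22.

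Il6st, the signal transducing chain for IL-6, LIF and related cytokines, was also higher in SSM3, but by far less than Prlr. It lies at chr13:112464070-112510086 on the plus strand (ENSMUSG00000021756) and had 328, 371 and 302 counts in J110 and 725, 862 and 873 in SSM3. The lowest SSM3 library, at 161 CPM, was above the highest J110 library, at 73.4 CPM. Means were 66.5 ± 5.92 CPM (SD, n = 3) in J110 and 173 ± 10.8 CPM in SSM3, and the log2 fold change was 1.38 ± 0.090 (SE), with an adjusted p of 5.66e-10 in edgeR's test. Unlike Prlr, this receptor was well above the floor in every library of both lines.

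Jak2, the kinase bound to PRLR and to IL6ST, was 12.3-fold higher in SSM3. It lies at chr19:29251828-29313080 on the plus strand (ENSMUSG00000024789), and its counts were 160, 165 and 156 in J110 and 1669, 1965 and 1971 in SSM3. The J110 libraries lay within 30.8 to 32.6 CPM and the SSM3 libraries within 372 to 417 CPM, so the gap was many times the spread within either line. The log2 fold change was 3.62 ± 0.086 (SE), with an adjusted p of 1.53e-15 in edgeR's test, and it stayed between 3.56 and 3.80 under all 18 alternatives run for it. Of the other Janus kinase genes, 1 was higher in SSM3, 1 was lower and 1 was not called. Jak1, which serves gp130 and interferon receptors, fell by 0.83 on the log2 scale in SSM3 (193 ± 10.4 CPM in J110 and 109 ± 0.533 in SSM3, SD, n = 3), with an adjusted p of 4.73e-08 in edgeR's test. Jak3, the kinase of the common gamma chain, had 59, 37 and 55 counts in J110 and 158, 170 and 209 in SSM3 and a log2 fold change of 1.90 (adjusted p of 2.26e-08 in edgeR's test), but it shares 404 exon bases with Insl3 on the same strand. Tyk2 had overlapping libraries, with means of 16.0 and 13.7 CPM and an adjusted p of 0.242 in edgeR's test.

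Genes beside Jak2 on chromosome 19 were looked at after the values were seen. Of the 10 nearest tested genes, 5 on each side, 7 were higher in SSM3 and 1 was lower, with a median log2 fold change of 2.27, where 38.6% of all genes tested were higher and the median was -0.014. The nearest genes on either side are Rcl1, which acts in ribosomal RNA processing and had a log2 fold change of 3.49, and Insl6, a relaxin family gene, with 6.14. Ermp1 had 3.13 and Ak3, a mitochondrial adenylate kinase gene, 2.93. Plgrkt, which lies between Insl6 and Ric1, went the other way at -0.92, and the outermost genes, Cdc37l1 and 9930021J03Rik, both had 0.22. No DNA copy number was measured, and its part in these values was not tested.

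**Figure D2:**
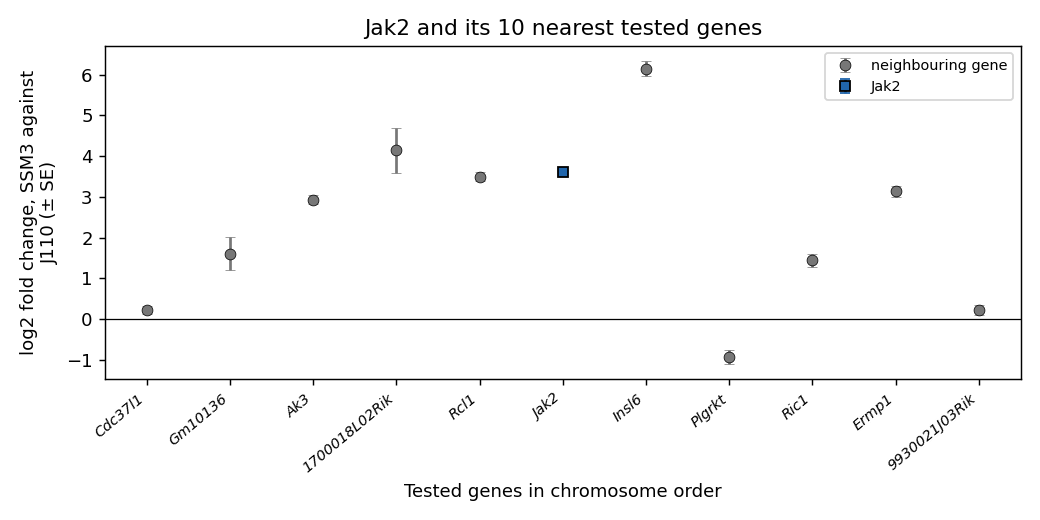
Log2 fold change of SSM3 against J110 (vertical axis, with SE bars) for Jak2 (blue square) and the 5 nearest tested genes on each side (grey circles), in chromosome order with equal spacing. Jak2 at 3.62 sits among genes from 1.44 to 6.14, apart from Plgrkt at -0.92, and the genes at either end are near 0.

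Both STAT5 genes were higher in SSM3, and Stat5a by more than Stat5b. Stat5a, the form most needed for the mammary response to prolactin, lies at chr11:100859351-100885169 on the plus strand (ENSMUSG00000004043) and had 28, 34 and 17 counts in J110 and 525, 520 and 562 in SSM3. J110 replicate 3 was the lowest of all, and the SSM3 libraries differed little from each other. Means were 5.22 ± 1.60 CPM (SD, n = 3) in J110 and 113 ± 3.41 CPM in SSM3, a log2 fold change of 4.42 ± 0.14 (SE) with an adjusted p of 5.78e-14 in edgeR's test. Its J110 level was 3.14% to 5.95% of the SSM3 mean.

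Stat5b, the close paralogue that lies beside it at chr11:100780731-100850724 on the minus strand (ENSMUSG00000020919), had 76, 89 and 82 counts in J110 and 269, 258 and 325 in SSM3. The libraries of the lines again kept apart, at 14.7 to 17.6 CPM in J110 and 54.8 to 64.7 CPM in SSM3. Its log2 fold change was 1.86 ± 0.12 (SE), with an adjusted p of 5.48e-10 in edgeR's test. Of the counts of both STAT5 genes, Stat5a held 26.9%, 27.6% and 17.2% in J110 replicates 1, 2 and 3 and 66.1%, 66.8% and 63.4% in SSM3. The Wilson 95% intervals reached at most 36.2% in J110 and went down to 60.1% in SSM3. The shares thus averaged 23.9% ± 5.85 (SD, n = 3) in J110 and 65.4% ± 1.84 in SSM3, a difference of 41.5 percentage points with an exact two-sided permutation p of 0.1, the smallest that 3 against 3 libraries allow. The intervals cover counting error only. Among stretches of 75 bases, the read length, in the last 500 bases of the annotated transcripts, 2.67% of those of Stat5a also occur in Stat5b and 10.6% of those of Stat5b in Stat5a, so a part of the reads could fall on either gene.

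Stat3, which acts below gp130 and drives the regression of the gland after weaning, lies next to Stat5a at chr11:100885098-100939540 on the minus strand (ENSMUSG00000004040). It had 235, 215 and 208 counts in J110 and 1386, 1307 and 1363 in SSM3. All SSM3 libraries, at 271 to 309 CPM, were above all J110 libraries, at 42.5 to 45.3 CPM. The log2 fold change was 2.71 ± 0.086 (SE), with an adjusted p of 5.30e-14 in edgeR's test. Stat3 and Stat5a overlap by 72 bases at their 3′ ends, at chr11:100885098-100885169, and the strand setting of the counting is not given in the sources used here, so some reads may have been counted for the wrong one of the pair. As a share of the counts of Stat3, Stat5a and Stat5b together, Stat3 held 66.9% ± 2.95 (SD, n = 3) in J110 and 62.3% ± 1.54 in SSM3, a difference of -4.61 points (exact two-sided permutation p of 0.1), with values from -6.26 to -3.40 when each library was left out in turn.

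Stat6 was the axis gene for which no difference was called. It lies at chr10:127642986-127660957 on the plus strand (ENSMUSG00000002147) and had 155, 157 and 123 counts in J110 and 139, 136 and 154 in SSM3. The libraries of the lines overlapped, at 25.7 to 31.1 CPM in J110 and 28.9 to 31.0 CPM in SSM3. The log2 fold change was 0.062 ± 0.12 (SE), with an adjusted p of 0.657 in edgeR's test, and it turned to -0.025 without J110 replicate 3. Its last 40 bases overlap Nab2 on the opposite strand.

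Outside the axis, Stat2, which acts in the response to interferons, had 17, 33 and 28 counts in J110 and 137, 157 and 160 in SSM3 (log2 fold change 2.61 ± 0.19, SE, adjusted p of 2.70e-09 in edgeR's test). Stat4, a STAT of lymphocytes, had 1 count in all 6 libraries together.

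**Figure D3:**
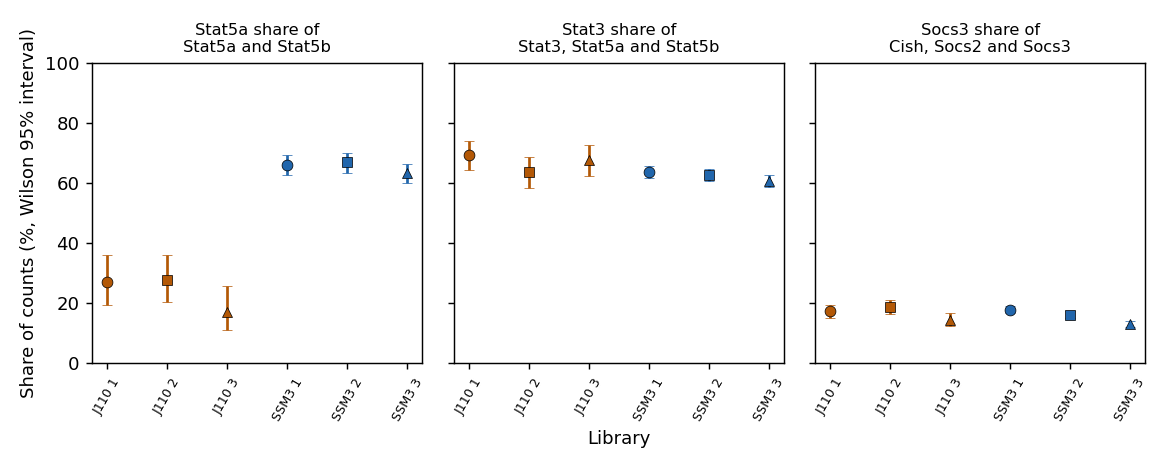
Share of counts in percent (vertical axis, 0 to 100) in each library, with Wilson 95% intervals as bars, for Stat5a within both STAT5 genes (left), Stat3 within Stat3, Stat5a and Stat5b (middle) and Socs3 within Cish, Socs2 and Socs3 (right). Stat5a held 17.2% to 27.6% in J110 and 63.4% to 66.8% in SSM3, while the intervals of the lines overlap in the other panels.

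All 3 feedback inhibitor genes were higher in SSM3. Cish, whose product binds phosphorylated cytokine receptors and which is a standard readout of STAT5, lies at chr9:107296026-107302784 on the plus strand (ENSMUSG00000032578), and its promoter window is the one above with 2 motif matches. It had 10, 4 and 8 counts in J110 and 230, 203 and 239 in SSM3. The J110 values were near the floor, between 1.67% and 4.08% of the SSM3 mean. Means were 1.46 ± 0.596 CPM (SD, n = 3) in J110 and 47.3 ± 4.06 CPM in SSM3, and the log2 fold change was 4.99 ± 0.22 (SE), with an adjusted p of 2.82e-12 in edgeR's test. The antisense gene Gm17041 shares 479 exon bases with Cish and had 1, 1 and 1 counts in J110 and 99, 75 and 77 in SSM3, and without the strand setting its reads and those of Cish cannot be told apart.

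Socs2, which restrains growth hormone and prolactin receptors, lies at chr10:95385362-95417180 on the minus strand (ENSMUSG00000020027). Its counts were 940, 944 and 872 in J110 and 2838, 3283 and 3613 in SSM3. Unlike Cish, it was well above the floor in J110, at 181 to 187 CPM, and reached 632 to 719 CPM in SSM3. The log2 fold change was 1.90 ± 0.072 (SE), with an adjusted p of 4.85e-13 in edgeR's test. Of its stretches of 75 bases near the 3′ end, 8.28% also occur in Adarb1, Gm9847 or Lix1.

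Socs3, the inhibitor that binds gp130 and JAK2, lies at chr11:117966079-117970047 on the minus strand (ENSMUSG00000053113). It had 198, 218 and 149 counts in J110 and 664, 672 and 573 in SSM3. Replicate 3 was the lowest in both lines, yet the lowest SSM3 library, at 114 CPM, stayed above the highest J110 library, at 43.1 CPM. The log2 fold change was 1.84 ± 0.12 (SE), with an adjusted p of 7.25e-10 in edgeR's test. Within the counts of Cish, Socs2 and Socs3, the share of Socs3 was 16.8% ± 2.14 (SD, n = 3) in J110 and 15.6% ± 2.46 in SSM3, a difference of -1.17 points with an exact two-sided permutation p of 0.6, and it was 0.17 points without SSM3 replicate 3.

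In all, 9 of the 10 axis genes were called between the lines at an adjusted p under 0.05 in edgeR's test, where 77.9% of all genes tested were called, so the count of calls alone is near the background. All 9 were higher in SSM3, against 38.6% of all genes higher and 39.2% lower, and their libraries did not overlap, as for 79.6% of all genes. In edgeR's glmTreat, which asks for a change of more than 2-fold, 9 of the 10 axis genes and 34.8% of all genes passed. The median log2 fold change of the axis genes was 2.30, and that of all genes tested was -0.014. Scaling by library size alone moved the median of all genes to 0.16, a shift far smaller than the axis values apart from that of Stat6. By the size of the difference the order was Prlr, Cish, Stat5a, Jak2, Stat3, Socs2, Stat5b, Socs3, Il6st and Stat6, and Socs2, Stat5b and Socs3, at 1.90, 1.86 and 1.84, lay within their standard errors of each other.

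**Figure D4:**
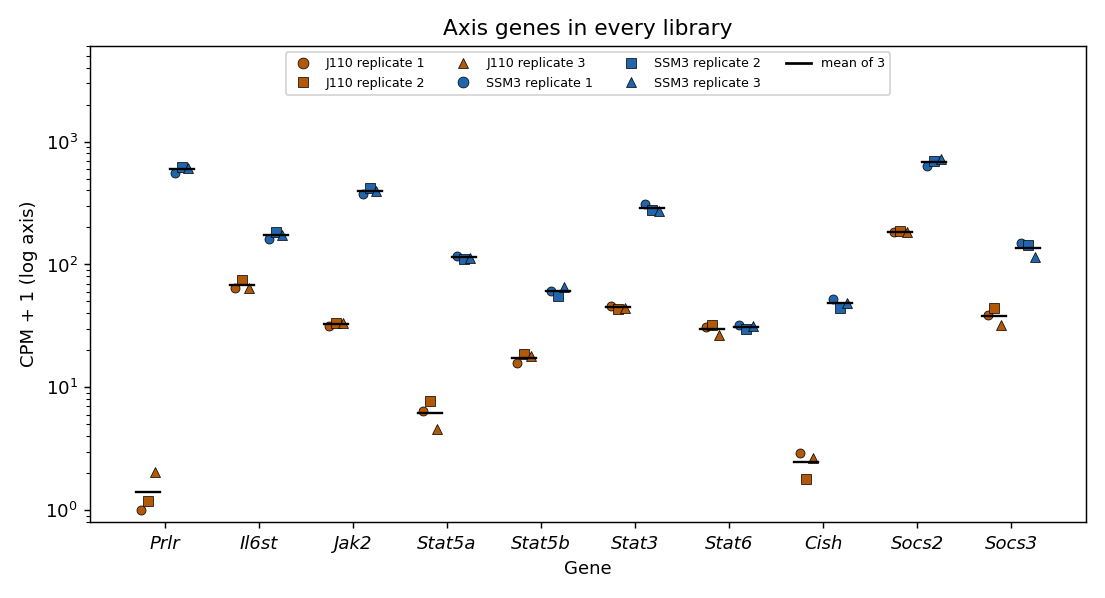
Level of the 10 axis genes as CPM + 1 on a log axis, with J110 libraries in orange, SSM3 libraries in blue, the marker shape giving the replicate and the black line the mean of 3. For 9 genes every SSM3 library lies above every J110 library, and the libraries overlap for Stat6.

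A wider list of 108 genes placed these values among other ligands, receptors, inhibitors or other regulators, and targets of the cytokine and STAT pathways. Of these, 17 had no count in any library and 62 were tested, of which 24 were higher in SSM3, 27 were lower and 11 were not called by edgeR's test. Their median log2 fold change was -0.12. So 82.3% of the tested genes were called, near the background, and they split between the directions, where the axis genes did not.

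Among 23 ligand genes, 6 were tested and 3 were higher and 3 lower in SSM3. Clcf1, a ligand of the IL-6 family, fell by 2.67 on the log2 scale, from 19.7 ± 1.65 CPM in J110 to 3.07 ± 1.16 CPM in SSM3 (SD, n = 3), with an adjusted p of 2.51e-08 in edgeR's test. Ctf1, of the same family, had 0 counts in J110 and 34, 23 and 21 in SSM3, at least 9.25-fold higher against a floor of 3 counts per library. The last 87 bases of Ctf1 overlap Ctf2 on the opposite strand, and without the strand setting the reads of this stretch cannot be told apart.

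Among 31 other receptor genes, 16 were tested, 5 were higher in SSM3, 6 were lower and 5 were not called. Il13ra1, a receptor chain for IL-13 that signals to STAT6, had 10, 17 and 10 counts in J110 and 593, 685 and 625 in SSM3 (log2 fold change 5.75 ± 0.16, SE, adjusted p of 7.20e-15 in edgeR's test). Its partner Il4ra fell by 1.70. Csf2ra, the GM-CSF receptor chain, had 3, 1 and 1 counts in J110 and 81, 134 and 95 in SSM3, and its log2 fold change of 5.93 was 6.56 without J110 replicate 1. Ifngr1, the interferon gamma receptor, fell by 2.69, from 158, 185 and 117 counts to 22, 24 and 21.

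The group of 17 other inhibitor genes also holds regulators that are not plain inhibitors, such as the JAK2 adaptor gene Sh2b2. All 17 were tested, and 7 were higher in SSM3, 8 were lower and 2 were not called. The tyrosine phosphatase genes Ptpn6 and Ptpn1 were higher, with log2 fold changes of 4.50 ± 0.23 and 2.27 ± 0.079 (SE). Ptpn1, whose product dephosphorylates JAK2, had 303, 320 and 309 counts in J110 and 1351, 1428 and 1474 in SSM3, and Ptpn6 had 8, 6 and 5 and 146, 130 and 139. Sh2b2, an adaptor of JAK2, was higher at 2.76 ± 0.23 (SE). Sh2b3, an adaptor that dampens JAK2, was lower, with 348, 323 and 249 counts in J110 and 64, 96 and 73 in SSM3 and a log2 fold change of -1.90 ± 0.15 (SE, adjusted p of 4.70e-09 in edgeR's test). Socs1, the closest relative of Socs3 on the list, fell by 2.61, from 22, 20 and 18 counts to 2, 2 and 5. Thus the SOCS family did not move one way, since Socs4 at -1.75 and Socs5 at -0.99 were lower too and Socs7 at 0.53 was higher.

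Of 16 genes taken as textbook STAT5 targets, 3 had no count and 7 were tested, with 2 higher in SSM3 and 5 lower. The milk protein genes were almost silent in both lines: 3 of 7 had no count, and 5 of 7 averaged below the floor in both lines. Csn2 had 0 counts in J110 and 2, 0 and 4 in SSM3, and Elf5, a transcription factor of alveolar cells, had 1, 2 and 1 counts in J110 and 0 in SSM3. Csn3, the gene of kappa-casein, had 52, 47 and 39 counts in J110 and 8, 2 and 5 in SSM3, and was lower in SSM3 (log2 fold change -3.09 ± 0.35, SE, adjusted p of 4.97e-07 in edgeR's test). Csn1s2a and Csn1s2b, other casein genes, lay the other way at very low levels that were not tested, with 0 counts in J110 and 8, 4 and 5 and 2, 3 and 3 counts in SSM3.

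Igf2, a growth factor gene, had 3, 1 and 3 counts in J110 and 2002, 1921 and 1956 in SSM3, a log2 fold change of 9.72 ± 0.17 (SE) with an adjusted p of 8.67e-17 in edgeR's test. Ccnd1, the gene of cyclin D1, averaged 1882 ± 168 CPM (SD, n = 3) in J110 against 206 ± 17.2 in SSM3, a log2 fold change of -3.19 ± 0.087 (SE). It shares 1100 exon bases with LTO1 on the opposite strand, which adds doubt where the strand setting is unknown. Pim1, a survival kinase gene that STAT5 and STAT3 induce, had 189, 192 and 173 counts in J110 and 17, 15 and 31 in SSM3 (log2 fold change -3.05 ± 0.19, SE). Bcl6, a gene that STAT5 represses, went from 161, 157 and 159 counts to 39, 33 and 41 (log2 fold change -1.99 ± 0.15, SE).

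Of 15 STAT3 target genes, 11 were tested, and 4 were higher in SSM3, 4 were lower and 3 were not called. Bcl3, a partner of NF-kappa-B, had 6, 7 and 9 counts in J110 and 625, 538 and 741 in SSM3 (log2 fold change 6.49 ± 0.18, SE, adjusted p of 9.82e-15 in edgeR's test). Fos, an immediate early gene, had 24, 24 and 22 counts in J110 and 264, 204 and 225 in SSM3 (log2 fold change 3.39 ± 0.18, SE). Pim3 and Myc were lower in SSM3, at -2.16 ± 0.093 and -1.98 ± 0.21 (SE). None of these counts measures phosphorylated STAT protein.

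**Figure D5:**
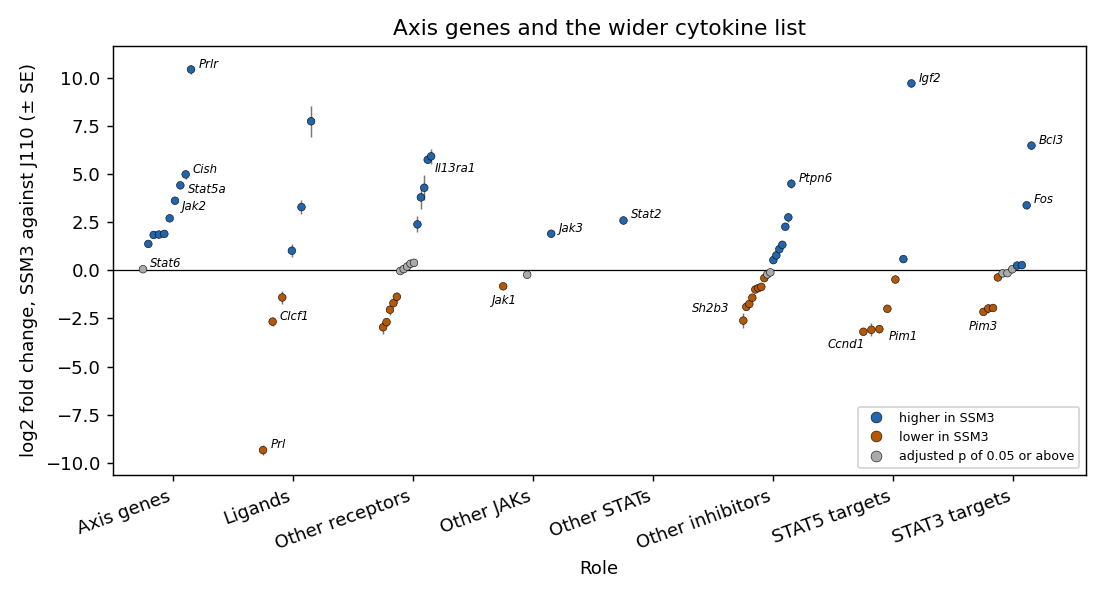
Log2 fold change of SSM3 against J110 (vertical axis, with SE bars) for the tested axis genes and the tested genes of the wider list that are reported here, grouped by role along the horizontal axis, in blue where higher in SSM3, orange where lower and grey where not called. The axis genes lie at or above 0, from 0.062 for Stat6 to 10.44 for Prlr, while genes of the wider list lie on both sides of 0, and the highest ligand point is Ctf1, whose J110 libraries were all at 0.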

How the data were processed

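RNA from 3 biological replicates each of J110 and SSM3 cells was made into libraries with the QuantSeq 3′ mRNA-seq kit. The authors' raw counts per gene were used as deposited. Per the submitters' processing notes and the paper, reads were demultiplexed with bcl2fastq (version 2.17.1.14), trimmed with cutadapt (2.1), mapped to mm10 with HISAT2 (2.0.4) and counted with featureCounts from Subread (2.0.0). The strand setting and the treatment of reads that overlap several genes are not given in the sources used here. Symbols and positions came from GENCODE for GRCm38 (mm10), matched for 52489 identifiers (99.7%), and promoter windows from RefSeq for GRCm38.p6. All 6 libraries were grouped by the cell line and replicate in their labels, and all columns were mapped.

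Low counts were removed with filterByExpr, libraries were scaled by TMM, and edgeR's quasi-likelihood test was run (edgeR 4.0.16, limma 3.58.1, R 4.3.3), adjusted by Benjamini-Hochberg over all 12284 genes tested, with a threshold of 0.05. SEs were obtained as the absolute log2 fold change over the root of F. CPM used total counts multiplied by TMM factors. The biological coefficient of variation was 8.30%. The axis genes and lists were chosen with earlier results of these data known. Named genes are the axis genes, all kinases and STATs of the wider list, and in each role at most 4 genes with the largest change among those called, not overlapping and at or above 10 CPM in a line, plus the 5 genes most like Prlr. Others (Ctf1, Gh, Ghr, Il4ra, Socs1, Socs4, Socs5, Socs7, Csn2, Csn3, Csn1s2a, Csn1s2b, the markers given with their values, Elf5, the genes that share exons and those beside a member) were named after their values were seen. Some results that the rule names are not reported here, while counts over lists include them. Counts were also simulated with 200 genes changed and the same dispersion for all genes, and 11951 genes were tested. Of these, 64% of 50 genes changed by 1.5-fold and 86% of 50 changed by 2-fold were recovered, and 8 of 180 calls were unchanged genes. In the data 77.9% of genes were called, a far larger share than was changed in the simulation, so these rates need not hold for the data. Alternatives covered DESeq2 (1.42.0), limma-voom, other scalings, filters, thinning, a replicate block and leaving out libraries. The numbers of the replicates were not taken to pair the samples. Deviations of same-numbered libraries correlated at 0.049, -0.0040 and 0.072 over 4945 genes, and those of differently numbered libraries at -0.084 to 0.053. With so few libraries such values cannot exclude a pairing.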

Additional observations from a re-analysis of the deposited data

How the results depend on the processing

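Among the alternative values of the axis genes' log2 fold changes, 177 kept the direction and the side of the threshold and 1 did not. The exception was Stat6, at -0.025 without J110 replicate 3 (adjusted p of 0.867 in edgeR's test), with values up to 0.11 when other libraries were left out. The share of Socs3 within Cish, Socs2 and Socs3 ranged from -2.34 to 0.17 points between the lines when each library was left out, with 0.17 without SSM3 replicate 3. Leaving out J110 replicate 3 and SSM3 replicate 2 together, an alternative chosen after seeing the data, left 9 axis genes called. The count of axis genes called stayed at 9, except for 7 of 8 where at least 10 counts were required in every library, a filter that leaves out Prlr and Cish by its construction. For the wider list the count was 51 and ranged from 34 under that filter, with 44 genes tested, to 63 with any gene that had a count, with 91 tested. With the replicate block, 9 axis genes and 9481 of all genes were called, against 9566 without it, and the block changed no call of an axis gene. With library size only, 56.5% of the calls over all genes were higher in SSM3, against 49.6% with TMM. In glmTreat 4272 genes passed. The depth limits Prlr in J110, Prl in SSM3 and Cish in J110, where a few counts set the size of the fold change.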

Other observations

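The chromosomal neighbours of the other axis genes were read in the same way as those of Jak2, after the values were seen. Around Prlr, 7 of the 10 nearest tested genes were higher in SSM3 and 1 was lower, with a median log2 fold change of 0.74. The nearest pair on one side, Spef2 and Capsl, which are known from cilia and sperm tails, had no count in any J110 library and averaged 24.5 and 46.6 CPM in SSM3. On the other side Rai14 was lower in SSM3, at -3.30. Around Stat5a, whose neighbours include Stat5b and Stat3, 6 were higher and 2 lower, and the next gene beyond Stat3 was Cavin1, a component of caveolae, which averaged 680 CPM in J110 and 5.93 CPM in SSM3 (log2 fold change -6.84 ± 0.11, SE). Around Socs3 2 were higher and 2 lower, around Socs2 3 and 3, around Il6st 4 and 3, around Cish 4 and 2, and around Stat6 2 and 4. Neighbouring genes share a chromosome and are not independent of each other, so these counts are descriptions.

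The antisense gene beside Cish, Gm17041, had a log2 fold change of 6.30 ± 0.39 (SE), with an adjusted p of 3.03e-10 in edgeR's test.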
